A study of Mus musculus with 3 samples.

Results

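Regulators of G protein signalling (RGS proteins) were examined as RNA in platelets, the anucleate blood cells that megakaryocytes shed. The 8 genes considered, Rgs18, Rgs10, Rgs19, Rgs14, Rgs3, Rgs6, Rgs2 and Rgs1, were taken by name, and 7 of them were found among the 9822 genes of the deposited count tables. Rgs1 has no row in these tables and was not analysed here. The platelets came from blood of male BALB/c mice, 20 weeks old and carrying wild-type Nxf1, with 3 libraries in 1 group and no other genotype, treatment or time. Each library carries its own batch number in the labels, so batch and sample cannot be told apart. The labels do not say whether the samples came from separate animals, so errors here measure the spread between samples, which may be technical. Platelet identity fitted the label, since all 10 platelet marker genes looked for were in the tables, at a median of 1649 CPM (counts per 1000000 counts assigned to genes). Totals ran from 25189231 to 26974129 counts per library.

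An RGS protein speeds the hydrolysis of GTP on the alpha subunit of a heterotrimeric G protein and so shortens the signal from an activated receptor. In platelets the G proteins of the Gi, Gq and G13 classes carry the signals of ADP, thromboxane and thrombin, and RGS proteins set how readily those signals start. RGS18 and RGS10 are the RGS proteins best studied in platelets, where both are known to be held by a complex of spinophilin with the phosphatase SHP-1. Binding by 14-3-3 proteins is known as well. The family divides by sequence into an R4 group (here Rgs1, Rgs2, Rgs3 and Rgs18), an R7 group (Rgs6), an R12 group (Rgs10 and Rgs14) and an RZ group (Rgs19).

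Reference sequence upstream of the start is shown for 3 members that span the levels described next: Rgs10, which was abundant, Rgs6, which was low and steady, and Rgs2, which was low and uneven between libraries. RefSeq windows on GRCm38.p6 were at hand for 5 of the 8 genes, namely Rgs10, Rgs6, Rgs2, Rgs19 and Rgs3. Each run below holds the 250 bases before an annotated start, which for Rgs10 and Rgs6 lies inside the gene's outer bounds, 5′ to 3′ on the gene's strand, at chr7:128418173-128418422 (minus strand) for Rgs10, chr12:82617249-82617498 (plus strand) for Rgs6 and chr1:144004150-144004399 (minus strand) for Rgs2. Capitals mark matches on either strand to GATAA, the core read by GATA factors, and to GGAAG, a core read by ETS factors. The 2 motifs share no base in these windows.
Rgs10: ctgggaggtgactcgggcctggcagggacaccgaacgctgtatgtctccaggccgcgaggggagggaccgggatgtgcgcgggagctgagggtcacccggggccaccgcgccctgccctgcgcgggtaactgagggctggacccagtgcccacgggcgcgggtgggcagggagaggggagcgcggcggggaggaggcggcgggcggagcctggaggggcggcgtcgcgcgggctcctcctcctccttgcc
Rgs6: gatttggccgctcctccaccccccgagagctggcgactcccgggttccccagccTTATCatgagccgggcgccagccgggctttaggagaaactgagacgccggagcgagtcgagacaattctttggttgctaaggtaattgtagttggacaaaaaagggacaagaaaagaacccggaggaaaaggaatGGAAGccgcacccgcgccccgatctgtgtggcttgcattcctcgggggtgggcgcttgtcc
Rgs2: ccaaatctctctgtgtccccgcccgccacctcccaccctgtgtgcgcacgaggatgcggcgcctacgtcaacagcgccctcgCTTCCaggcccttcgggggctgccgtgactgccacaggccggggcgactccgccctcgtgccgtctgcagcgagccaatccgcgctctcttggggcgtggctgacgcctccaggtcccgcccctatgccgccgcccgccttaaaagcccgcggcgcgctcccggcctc
Neither motif was found in the Rgs10 window, 1 match to each was found in the Rgs6 window, and 1 match to GGAAG in the Rgs2 window. Of 32851 RefSeq windows of the same length, 22.6% held GATAA and 64.1% held GGAAG. The Rgs10 and Rgs2 windows were rich in CpG, with 27 and 30 CpG dinucleotides against a median of 6, and the Rgs6 window held 18. These matches describe letters only.

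Rgs18 and Rgs10 were the abundant members. Rgs18 (Entrez 64214, chromosome 1, 144752683 to 144775427 in GRCm38), an R4 protein known to act on Gi and Gq, had 115805, 116316 and 110393 counts in replicates 1, 2 and 3, or 4293, 4618 and 4228 CPM. Replicate 2 was highest and the libraries lay within 1.09-fold of each other. With a mean of 4380 ± 209 CPM (SD, n = 3), Rgs18 was at rank 22 of the 9822 genes by CPM and at rank 34 per 1000 bases of deposited gene length. Rgs10 (Entrez 67865, chromosome 7, 128373621 to 128419506), a small protein that consists of little more than the RGS domain, was at 1788, 1823 and 1727 CPM, from 48223, 45908 and 45097 counts. Its mean of 1779 ± 48.3 CPM (SD, n = 3) placed it at rank 75 by CPM and at rank 40 per 1000 bases, and its libraries were within 1.06-fold. For both genes the spread between libraries exceeded counting error, whose coefficient of variation was 0.296% for Rgs18 and 0.464% for Rgs10 against observed values of 4.77% and 2.71%. With TMM scaling, which corrects for differences in RNA composition, the observed values were 11.7% for Rgs18 and 10.7% for Rgs10, with replicate 3 lowest.

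Ratios between genes were taken after division by the deposited gene length, as CPM per 1000 bases, unless another scale is named. On that scale Rgs18 was at 2309, 2484 and 2274 in replicates 1, 2 and 3 and Rgs10 at 2043, 2083 and 1974. Rgs18 was the higher in every library, with groups of values that did not overlap, at a log2 ratio of 0.21 ± 0.04 (SD, n = 3) or 1.16-fold. The shorter deposited length of Rgs10, 875 bases against 1859 for Rgs18, brings the 2 genes together, since by CPM alone the ratio was 2.46-fold. The order depends on that length. With the shortest coding transcript that GENCODE annotates for each gene (373 bases for Rgs10 and 2031 for Rgs18) the log2 ratio was -1.15, with Rgs10 above, and with the longest (880 and 2031 bases) it was 0.092. The smallest two-sided p that an exact sign-flip test can give with 3 libraries is 0.25, so ratios carry an SD and no test.

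Rgs6 was next by CPM and by mean per 1000 bases of deposited length, far below. It encodes an R7 protein that acts on the Gi and Go class and needs the beta subunit Gnb5 for its stability. Rgs6 (Entrez 50779, chromosome 12, 82616551 to 83162061) was at 10.8, 11.2 and 10.9 CPM, from 291, 283 and 284 counts. This was the steadiest member, at 10.97 ± 0.237 CPM (SD, n = 3), a coefficient of variation of 2.16% where counting error alone gives 5.92%. Its coefficient of variation was 9.18% with TMM scaling and 11.1% with DESeq2 size factors, above counting error and still the smallest of the 7 members. Per 1000 bases Rgs10 exceeded Rgs6 487-fold (log2 ratio 8.93 ± 0.03, SD, n = 3), the widest gap between neighbours in the order. Gnb5, its partner, was at 5.75, 7.30 and 7.24 CPM, and the log2 ratio of Rgs6 to Gnb5 per 1000 bases was 0.26 ± 0.18 (SD, n = 3), above 0 in all 3 libraries. The membrane anchors Rgs7bp and Rgs9bp and the receptors Gpr158 and Gpr179, which bind R7 proteins in neurons and the retina, have no row in these tables.

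**Figure D1:**
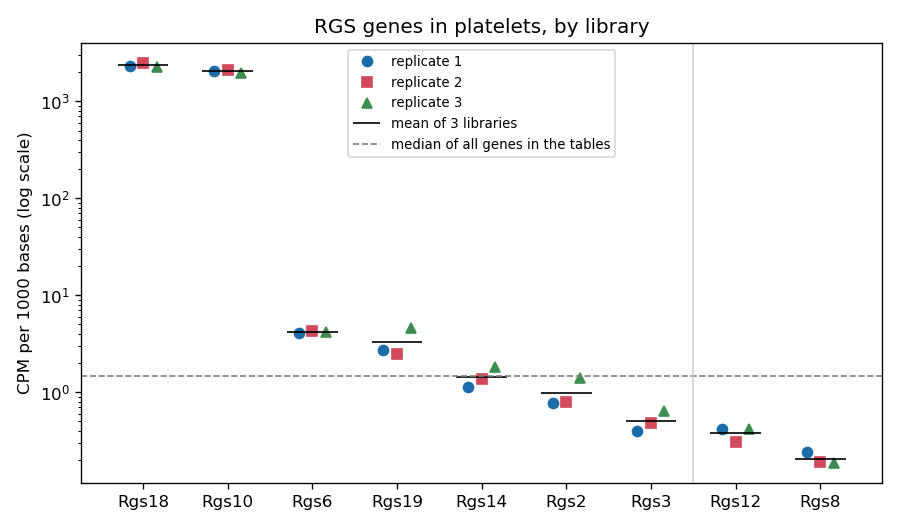
Level of each RGS gene in the tables as CPM per 1000 bases of deposited gene length, on a log axis, with 1 point per library and a bar at the mean of 3 libraries. Rgs18 (mean 2356) and Rgs10 (2033) sit far above Rgs6 (4.18) and the genes after it, and the dashed line marks the median of all genes, 1.49; Rgs12 and Rgs8, right of the grey line, were not among the 8 genes named.

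The remaining members were at a few CPM, and each was highest in replicate 3. Rgs19 (Entrez 56470, chromosome 2, 181688419 to 181694537), the RZ protein also called GAIP, had 106, 90 and 176 counts in replicates 1, 2 and 3, or 3.93, 3.57 and 6.74 CPM. Rgs2 (Entrez 19735, chromosome 1, 143999338 to 144004149), an R4 protein known for its preference for Gq, was at 2.34, 2.38 and 4.21 CPM, from 63, 60 and 110 counts. For both genes replicates 1 and 2 were close and replicate 3 stood above them, beyond counting error: the exact Poisson 95% interval of Rgs19 was 5.78 to 7.81 CPM in replicate 3 against 3.22 to 4.75 in replicate 1 and 2.87 to 4.39 in replicate 2. For Rgs2 it was 3.46 to 5.08 CPM in replicate 3, against 1.79 to 2.99 and 1.82 to 3.07 in replicates 1 and 2. Such intervals cover counting error only, and they were computed on plain totals and not with TMM scaling.

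Rgs14 (Entrez 51791, chromosome 13, 55369732 to 55384687), which joins an RGS domain to Ras and Rap binding domains and a GoLoco motif for inactive Gi, was at 2.67, 3.22 and 4.33 CPM, from 72, 81 and 113 counts. Rgs3 (Entrez 50780, chromosome 4, 62559835 to 62703019), an R4 gene with long and short isoforms, was at 2.93, 3.49 and 4.67 CPM, from 79, 88 and 122 counts. In both, replicate 2 lay between the others and its counting interval overlapped that of replicate 3 (2.55 to 3.997 against 3.57 to 5.203 CPM for Rgs14, 2.80 to 4.30 against 3.88 to 5.58 CPM for Rgs3). The mean levels were 4.75 ± 1.73 CPM for Rgs19, 3.70 ± 0.890 for Rgs3, 3.40 ± 0.845 for Rgs14 and 2.98 ± 1.07 for Rgs2 (SD, n = 3).

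Per 1000 bases the order of the members was Rgs18, Rgs10, Rgs6, Rgs19, Rgs14, Rgs2 and Rgs3, at means of 2356, 2033, 4.18, 3.26, 1.44, 0.989 and 0.507. Of the 6 neighbouring pairs, 5 kept their order in all 3 libraries. The exception was Rgs6 and Rgs19, at log2 ratios of 0.61, 0.80 and -0.16 in replicates 1, 2 and 3. On deposited lengths these genes thus did not differ beyond their spread (0.42 ± 0.51, SD, n = 3). By CPM alone Rgs6 was above Rgs19 in every library, at log2 ratios of 1.46, 1.65 and 0.69. With the longest coding transcript Rgs19 was above Rgs6 in every library, at log2 ratios of 0.43, 0.23 and 1.20. The values of Rgs14 and Rgs2 overlapped between libraries although Rgs14 was higher in each. The place of Rgs3 rests on its deposited length of 7301 bases: GENCODE annotates 8 coding transcripts of 496 to 4698 bases, and by CPM alone Rgs3 stood between Rgs19 and Rgs14.

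Together the 7 members took 6104, 6464 and 5986 CPM in replicates 1, 2 and 3, a mean of 0.618% of counts. Rgs18 made up 53.5% ± 0.680 of their summed length-scaled level and Rgs10 46.2% ± 0.669 (SD, n = 3). The other 5 members added 0.209%, 0.205% and 0.297% in replicates 1, 2 and 3. By counts, without division by length, Rgs18 made up 70.8% ± 0.568 and Rgs10 28.8% ± 0.552. With the shortest coding transcript as length the share of Rgs18 was 30.9% and Rgs10 was the larger. On the deposited lengths the leading pair kept nearly the same proportions in every library.

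All 7 members reached 1 CPM in each of the 3 libraries, as did 77.7% of all genes in the tables. At a minimum of 5 CPM, 3 members remained, Rgs18, Rgs10 and Rgs6, beside 40.7% of all genes, so that neither count sets the members apart. The lowest gene in the tables reached 0.238 CPM in its best library, and how genes were kept for the tables is not stated. Of 13 further genes of the family looked for, 2 were in the tables. Rgs12, a large R12 protein, was at 2.34, 1.71 and 2.34 CPM, from 63, 43 and 61 counts, and Rgs8, an R4 gene known mainly from brain, at 1.41, 1.11 and 1.07 CPM, from 38, 28 and 28 counts. Their means per 1000 bases, 0.380 ± 0.0648 and 0.206 ± 0.0317 (SD, n = 3), were below that of each member, though the values of Rgs12 overlapped those of Rgs3. Rgs4, Rgs5, Rgs7, Rgs9, Rgs11, Rgs13, Rgs16, Rgs17, Rgs20, Rgs21 and Rgs22 have, like Rgs1, no row in these tables.

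Rgs18 lies at one end of a run of 5 RGS genes within 776 kb of chromosome 1 in GRCm38, and Rgs2 lies at the other end. Per 1000 bases Rgs18 exceeded Rgs2 by a log2 ratio of 11.54, 11.62 and 10.67 in replicates 1, 2 and 3, or 2475-fold at the mean of 11.27 ± 0.53 (SD, n = 3). The genes between them, Rgs13, Rgs1 and Rgs21, have no row in these tables. Beyond Rgs2, the nearest protein-coding gene in the tables was Uchl5, which encodes a deubiquitinase, at 3.53 CPM. Ro60, which encodes an RNA-binding protein, was at 95.4 CPM, and per 1000 bases it was the highest after Rgs18 in the region plotted, at 10.9.

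**Figure D2:**
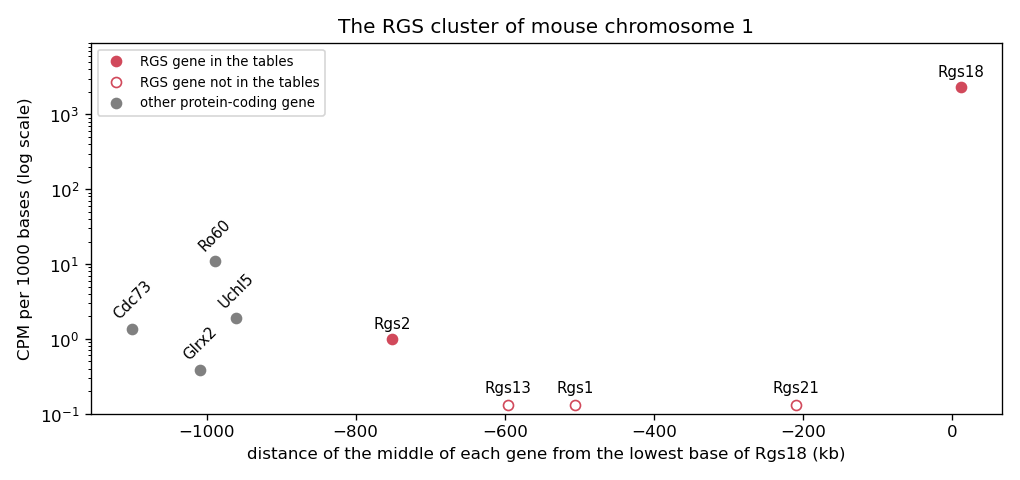
Protein-coding genes around the RGS cluster of chromosome 1, by distance from the lowest base of Rgs18 in kb (horizontal) and by mean CPM per 1000 bases over 3 libraries (vertical, log axis). Rgs18 stands at 2356 and Rgs2 at 0.989, while open circles mark Rgs13, Rgs1 and Rgs21, which have no value and are drawn at the foot of the axis.

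Most of the annotated sequence of each member did not recur in transcripts of other genes. The handling of multiply placed reads is not given, so this does not show how reads were assigned. In GENCODE M21 transcripts, 0 of the 50-base words of Rgs18, Rgs10, Rgs19 and Rgs2 recurred in another gene. The share was 0.705% for Rgs14, 0.452% for Rgs6 and 11.4% for Rgs3. All of the recurring Rgs3 words were those of the pseudogene Gm5763, which has no row in these tables, so the level of Rgs3 is uncertain. No exon of another gene overlapped the exons of the members, apart from 77 bases of Rgs6 shared with Gm29530 on the opposite strand. The strand setting of the counting is not given in the sources used here.

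The spread between libraries was tested across every gene whose mean reached 1 CPM, as the excess of each gene's edgeR quasi-likelihood dispersion over the trend for its level. Of 8289 genes, 0.229% were called at a Benjamini-Hochberg adjusted p under 0.05, and 0 of the 7 members were. At an unadjusted p under 0.05 the count of members was also 0, against 356 genes, and DESeq2 marked 0 members as dispersion outliers. Rgs19 had the smallest p of the members, at an edgeR adjusted p of 0.982. The widest range of a member between libraries was 1.89-fold, for Rgs19. This lay below the smallest difference tried on simulated data, which the test missed. The absence of calls among the members therefore does not show that they were steady. On plain totals the excess of Rgs19 and Rgs2 in replicate 3 was larger than counting error. The test of spread did not call it, either with TMM scaling or on plain totals.

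Replicate 3 was the highest library for many genes. The count of members highest there was 4 of 7 on plain totals, beside 68.7% of all genes. It was also 4 of 7 with TMM scaling, beside 43.4% of all genes, and with DESeq2 size factors, beside 39.1%. With 7 members, nothing particular to them can be read from these shares. Among the 6259 genes with a mean from 1 to under 20 CPM, the ratio of replicate 3 to the mean of replicates 1 and 2 had a median of 1.25 and quartiles of 1.07 and 1.53. Rgs19 (1.797-fold) and Rgs2 (1.79-fold) lay above the upper quartile, Rgs14 (1.47-fold) and Rgs3 (1.46-fold) within the quartiles, and Rgs6 (0.988-fold) below the lower one. The abundant members Rgs18 (0.949-fold) and Rgs10 (0.957-fold) were set beside the 126 genes of 1000 CPM or more, whose quartiles were 0.970 and 1.06, and lay just below them. With TMM scaling, which gives replicate 3 a larger effective size, the ratio was 1.55 for Rgs19, 1.54 for Rgs2, 1.27 for Rgs14, 1.26 for Rgs3, 0.852 for Rgs6, 0.825 for Rgs10 and 0.818 for Rgs18. The direction of each ratio was the same under both scalings, while the median ratio over all genes was 1.19 on plain totals and 1.03 with TMM.

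Markers of other blood cells were uneven between the libraries as well. The counts of markers highest in replicate 3 stand beside the shares of genes highest there on the same plain totals. These were 68.7% of all genes and 73.6% of the genes with a mean from 1 to under 20 CPM. All 10 B cell markers were in the tables and all were highest in replicate 3, with a summed level of 168, 160 and 276 CPM in replicates 1, 2 and 3. By mean CPM, without division by length, Cd74, Cd79a and Blk led them at 127, 15.6 and 11.6 CPM, and the leading genes of the lists that follow are named on the same scale. Of the T cell markers 9 of 10 were in the tables, all highest in replicate 3, summing to 37.0, 37.6 and 55.4 CPM and led by Tcf7, Lck and Trac at 15.98, 12.2 and 5.19 CPM, while Cd3e was not among them. Neutrophil markers (5 of 10 in the tables, 3 of them highest in replicate 3, led by S100a9, S100a8 and Retnlg) summed to 14.1, 18.9 and 22.5 CPM, and natural killer cell markers (5 of 7, 3 highest in replicate 3, led by Nkg7, Eomes and Ncr1) to 7.16, 9.09 and 8.62 CPM. Monocyte markers (9 of 10, 5 highest in replicate 3, led by Lyz2, Fcgr1 and Mpeg1) summed to 1338, 1567 and 1421 CPM. Lyz2, highest in replicate 2, made up most of that sum, at 1286, 1515 and 1361 CPM. No marker in the tables was at 0 in a library. The part of leukocytes in the levels of the members was not tested. In a bulk sample, more cells of a type and more RNA per cell cannot be told apart.

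Red cell markers followed another order, with 8 of 10 in the tables, led by Hba-a1, Hbb-b1 and Hba-a2, all 8 highest in replicate 1 and summed levels of 48712, 5217 and 6803 CPM. No member was highest in replicate 1, but 68.7% of all genes were highest in replicate 3. With 7 members, nothing particular to them can be read from this. Platelet markers summed to 34444, 35941 and 37000 CPM, and 8 of the 10 were highest in replicate 3, beside 68.7% of all genes. The most abundant by CPM, Ppbp (9571, 10606 and 10330 CPM) and Pf4 (9858, 10381 and 9768 CPM), were highest in replicate 2. Rgs18 and Rgs10, also highest in replicate 2, did not follow the order of the sum. They had the order of Pf4, within a range of 1.09-fold and 1.06-fold.

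**Figure D3:**
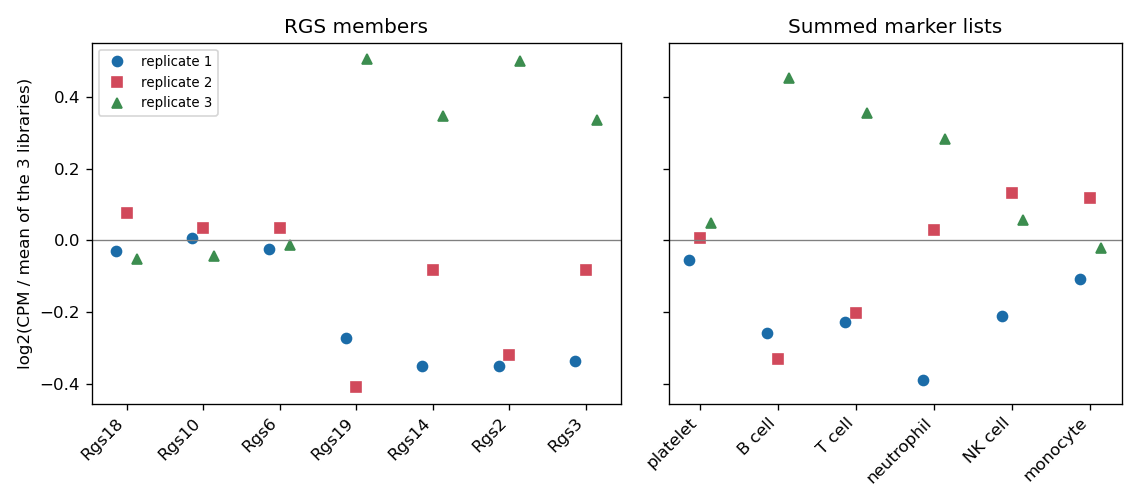
Deviation of each library from the mean of the 3 libraries, as log2 of the CPM ratio, for the RGS members (left, 1 gene per column) and for the summed CPM of marker lists (right). Lyz2 made up most of the monocyte sum, at a mean of 1387 of 1442 CPM. On these plain totals Rgs18, Rgs10 and Rgs6 stay close to 0 in every library, while replicate 3 stands above the others for Rgs19, Rgs14, Rgs2 and Rgs3 and for the B cell, T cell and neutrophil lists; the red cell list, with 48712 CPM in replicate 1 against 5217 and 6803 CPM, is not drawn.

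Per 1000 bases of deposited length, the alpha subunits of the G proteins were at lower levels than the leading members. Of the Gi class 3 of 5 genes were in the tables, Gnai2 at 323 ± 14.8, Gnaz at 21.0 ± 2.60 and Gnai3 at 8.30 ± 1.02 CPM per 1000 bases (SD, n = 3). Per 1000 bases Rgs18 exceeded Gnai2 7.30-fold and Rgs10 exceeded it 6.30-fold. In the Gq class Gnaq was at 9.88 ± 1.32 and Gna11 at 0.168 ± 0.0169, so that Rgs18 exceeded Gnaq 240-fold (log2 ratio 7.90 ± 0.26, SD, n = 3) and Rgs10 exceeded it 207-fold. Gna13 and Gna12 were at 8.10 and 3.56, and Gnas, the stimulatory subunit, at 601. The place of Gnas rests on its deposited length of 6061 bases. By CPM alone it was at 3645, above Rgs10 at 1779 and below Rgs18 at 4380. The ratios given are of reads per length of RNA and say nothing of protein.

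Receptors upstream were uneven. Among Gi-coupled receptors 4 of 8 were in the tables and 2 of them reached 1 CPM in all libraries, with the ADP receptor P2ry12 at 1449 ± 57.1, Ptger3 at 3.00 and Cxcr4 at 0.626 CPM per 1000 bases. Rgs18 exceeded P2ry12 by a log2 ratio of 0.70 ± 0.08 (SD, n = 3), or 1.63-fold, in the same direction in all libraries. Of the protease-activated and Gq-coupled receptors 5 of 8 were in the tables and 4 reached 1 CPM, led by F2rl2 at 66.2, P2ry1 at 20.4 and F2r at 2.98. Of the Gs-coupled receptors 2 of 8 were in the tables, the prostacyclin receptor Ptgir at 24.2 and Adora2a at 0.589. The medians of these 3 lists were 1.81, 2.98 and 12.4 CPM per 1000 bases, beside 3.26 for the RGS members and 1.49 for all genes.

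A further list covered spinophilin, SHP-1, the 14-3-3 family and the catalytic subunits of protein phosphatase 1. Not every gene on it is known to encode a protein that binds RGS18 or RGS10. All 12 genes of that list were in the tables and 11 reached 1 CPM in every library, beside 77.7% of all genes. The median was 22.4 CPM per 1000 bases. The 14-3-3 gene Ywhah was highest at 368 ± 22.6 (SD, n = 3), followed by the catalytic subunits of protein phosphatase 1 Ppp1ca at 163 and Ppp1cb at 151. Spinophilin, encoded by Ppp1r9b, was at 112, 108 and 126 CPM, and Rgs18 exceeded it 88.4-fold per 1000 bases. Ptpn6, which encodes SHP-1 and is also abundant in leukocytes, was at 18.6, 24.3 and 44.7 CPM. It was highest in replicate 3, as were 68.7% of all genes on plain totals. The part of leukocytes in its level was not tested. Of 7 genes for the cyclic nucleotide-dependent kinases, which are known to phosphorylate RGS18, 6 were in the tables, led by the regulatory subunits Prkar2b at 280 and Prkar1a at 179 and the catalytic subunit Prkaca at 22.9 CPM per 1000 bases. Gipc1, a scaffold that binds RGS19, exceeded Rgs19 in each library, at a log2 ratio of Rgs19 to Gipc1 of -3.83 ± 0.35 (SD, n = 3).

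Other genes with an RGS-like domain and other modulators completed the pathway. Of 14 genes with such a domain 11 were in the tables and 10 reached 1 CPM in all libraries, at a median of 1.78 CPM per 1000 bases. The receptor kinase Grk5 was at 125 ± 2.50, Arhgef12, which G13 activates, at 45.9 and Arhgef1 at 14.7 (SD, n = 3). Downstream, 18 of 19 effector genes were in the tables and all 18 reached 1 CPM, led by Rasgrp2, the exchange factor for Rap1, at 931, Rap1b at 383 and Rasa3, which turns Rap1 off, at 184 CPM per 1000 bases. Of the other modulators 6 of 9 were in the tables and 5 reached 1 CPM, with Arrb2 at 226, Arrb1 at 91.3 and Ric8a, a chaperone of alpha subunits, at 76.6. Only Rgs18 and Rgs10, among all genes of the pathway lists and the members, exceeded P2ry12 per 1000 bases. By CPM alone Rgs18 and Gnas, at 4380 and 3645, exceeded P2ry12 at 3389, and Rgs10, at 1779, did not.

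**Figure D4:**
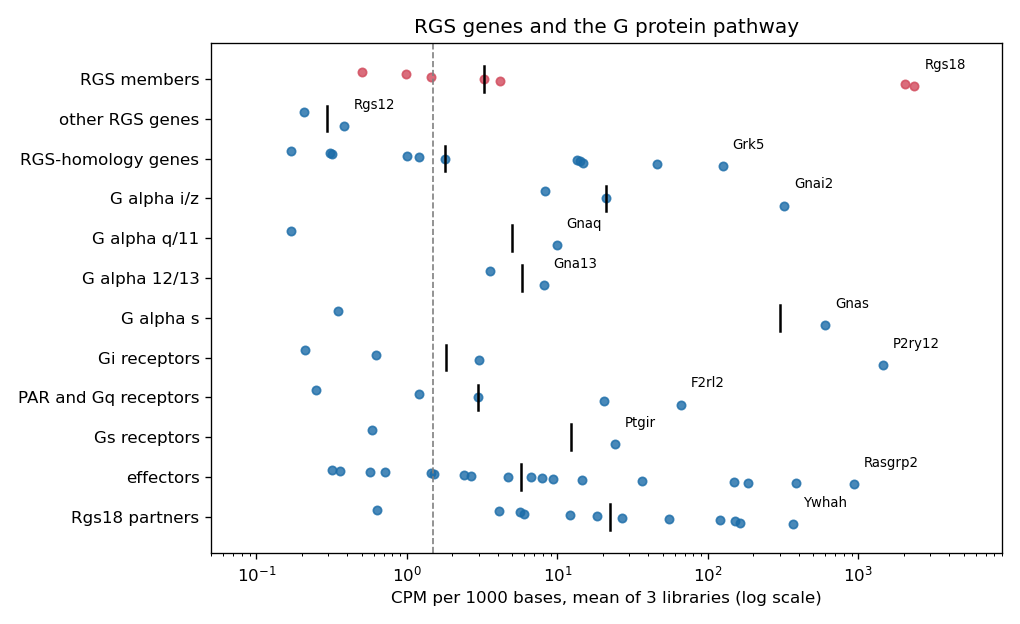
Mean CPM per 1000 bases over 3 libraries (log axis) of the RGS members (red) and of genes of the G protein pathway (blue), 1 point per gene, with a black bar at each list's median, the highest gene named and a dashed line at the median of all genes, 1.49. Rgs18 and Rgs10, at 2356 and 2033, lie right of P2ry12 at 1449 and Gnai2 at 323.

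The genes whose values in the 3 libraries were most like those of Rgs18 were found by the Euclidean distance of log2 CPM over 3 libraries. The nearest was Marchf2, a membrane-bound ubiquitin ligase, at 4257, 4607 and 4498 CPM in replicates 1, 2 and 3 and a distance of 0.09. Dap followed at 3970, 4195 and 4225 CPM (0.18) and the calcium pump Atp2a3 at 4434, 4554 and 4789 CPM (0.19). With 3 libraries this measure reflects the level far more than any shared variation, and in none of the 3 was replicate 3 the lowest library, as it was for Rgs18.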

How the data were processed

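RNA sequencing of platelets gave 3 libraries in 1 group. Per the labels' protocols, platelet RNA came from a Norgen kit and Illumina TruSeq RNA v2 reagents served for the libraries. The deposited tables hold raw counts per Entrez gene and a gene length in bases, a value of other kind that the authors supplied. The build is mm10 per the submitters' processing notes, which list edgeR 3.11.5, featureCounts, Subread and CASAVA 1.8.2 but no role for any of them. Annotation, strand and the handling of multiply placed reads: not given in the sources used here.

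From the counts, CPM on the plain total and CPM per 1000 bases of deposited length were computed, with mean and SD over 3 libraries and exact Poisson 95% intervals, which cover counting error only. A count of 3, the limit that a count of 0 allows, was 0.111 to 0.119 CPM. Entrez numbers were matched to the RefSeq table of GRCm38.p6, the assembly of mm10, with 9636 of 9822 genes matched. Of 191 list symbols, 1 had no identifier. The members and lists were chosen with earlier results of these data known.

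For the test of spread, genes whose mean reached 1 CPM were fitted with an intercept alone in edgeR 4.0.16 (limma 3.58.1, R 4.3.3), scaled by TMM. The dispersion of each gene, with 2 residual degrees of freedom, was set over its trend by the upper tail of F, with Benjamini-Hochberg adjustment over all genes fitted. The test was checked on simulated data, where it found large differences of a single library and missed the smallest ones tried. DESeq2 1.42.0 was an alternative, with other scalings, filters, lengths and each replicate left out. The text names the members, the further RGS genes in the tables, a few partners of the members, the 3 highest genes of each pathway list per 1000 bases and of each marker list by CPM, and the 3 genes nearest to Rgs18. Uchl5 and Ro60 were named after their values were seen, as neighbours on chromosome 1, as were Gm5763 and Gm29530, which share sequence with members. Gene models came from GENCODE M21. Python 3.11.15, NumPy 2.4.6, pandas 2.3.3, SciPy 1.17.1 and matplotlib 3.10.9 were used.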

Additional observations from a re-analysis of the deposited data

How the results depend on the processing

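No paired analysis was possible because there was 1 group. Leaving out the 10 highest genes from each total raised the summed level of the members to 10902 CPM, from fewer counts in the denominator, and moved each of the 7 single levels by more than 1 SD. The other 35 of 42 recomputed single levels stayed within 1 SD. Leaving out 1 of 3 libraries cannot move a mean by 1 SD, so those levels were bound to stay within it. A minimum of 5 CPM left 3 members. The share of Rgs18 in the family was 70.8% by counts, 51.5% with the longest and 30.9% with the shortest coding transcript as length. The log2 ratio of Rgs18 to Rgs10 was 1.30 by CPM, 0.092 with the longest and -1.15 with the shortest coding transcript, lengths chosen after seeing the data. Among all genes, 19 were called for spread, but 11 with plain totals, 11 at a mean of 5 CPM or more, 0 with a robust prior (by edgeR, with DESeq2 marking 49 dispersion outliers and 356 genes at an unadjusted p under 0.05 in the edgeR fit without that prior), and 1, 29 and 32 without replicate 1, 2 and 3. Under the settings of that test that gave a p-value, 0 members were called, with adjusted p values of 0.965 to 0.998. With at most 176 counts per library, Rgs19, Rgs14, Rgs2 and Rgs3 are limited by depth, and without replicate 3 Rgs19 averaged 3.75 CPM and Rgs2 2.36 CPM.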
